A study of Homo sapiens with 4 samples.

Results

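Interferon-stimulated genes and genes of antiviral sensing were followed by RNA sequencing in H1, a widely used human embryonic stem cell line, during a stepwise differentiation toward blood. The set holds 51 genes, taken by symbol from a fixed list and matched to the Entrez gene IDs of the libraries, among 19390 gene IDs listed in any library. Of the 51, 50 were listed in at least 1 library, and 46 reached 1 CPM (the count scaled to the library total) in at least 1. All cells are wild type. Day 0 is the undifferentiated line in its custom mTeSR1 medium. Day 2 follows treatment with activin A at 40 ng/ml and BMP4 at 50 ng/ml. Days 3 and 4 follow a further day and a further 2 days with VEGF at 40 ng/ml and bFGF at 50 ng/ml. No interferon is named among the added factors.

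Each day is 1 library of 1 cell line, so no difference between days could be checked in a replicate. No p-value is printed, and the 95% intervals in brackets cover counting error alone. The threshold for a change was a difference of 1 in log2(CPM + 1), or 2-fold on that scale, applied to genes that reached 1 CPM in one of the libraries compared. Single folds are ratios of CPM without a pseudocount. Against a library with 0 counts, a fold is a lower bound computed with a floor of 3 counts in that library. In a bulk library, fewer cells of a type and less RNA per cell cannot be told apart.

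Cells detect viral RNA through cytosolic helicases such as RIG-I and MDA5, which signal through the mitochondrial adaptor MAVS, and through endosomal receptors such as TLR3. These pathways lead to the secretion of type I interferon. Interferon binds the receptor pair IFNAR1 and IFNAR2, the kinases JAK1 and TYK2 are activated, and a complex that includes STAT2 and IRF9 enters the nucleus. It binds the interferon-stimulated response element (ISRE) in the promoters of effector genes such as the IFIT, OAS and MX families. Pluripotent stem cells are known for a weak interferon response and for expressing some effectors, among them IFITM genes, without added interferon.

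The libraries held between 5038060 and 5493266 expected counts, and 1 read was worth 0.182 to 0.196 CPM. The labels were checked against defining markers. The summed level of 6 pluripotency markers was 6007, 1536, 813 and 465 CPM on days 0, 2, 3 and 4. That of 5 streak and mesoderm markers was 2.72, 767, 641 and 640 CPM, and that of 6 endothelial markers 246, 421, 1063 and 1501 CPM. In the streak and mesoderm list, HAND1 measured 289, 443 and 594 CPM on days 2, 3 and 4. The other 4 markers were at least 2-fold lower on day 4 than on day 2. EOMES measured 374 and 37.4 CPM on those days, MIXL1 57.5 and 0.909, TBXT 36.5 and 6.72, and MESP1 9.22 and 0.182. Markers of blood and leukocytes stayed at 3.48 to 8.92 CPM in sum over 8 genes, with CD14 and HBZ at 0 counts in every library. Within that list PTPRC had 28, 9, 6 and 4 counts and AIF1 15, 13, 0 and 2, whereas GATA1 had 0, 0, 0 and 10. The endothelial markers and GATA1 were higher on day 4, on which the late members described below were higher. The part of these cells in those differences was not tested.

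Interferon genes themselves were nearly absent. Of 21 interferon ligand genes, 3 were listed in any library, and none reached 1 CPM. Their counts summed to 1, 1, 5 and 0 on days 0, 2, 3 and 4. With the floor of 3 counts, the 0 counts on day 4 allow a summed level of up to 0.545 CPM. IFNB1, the first interferon made after viral sensing in most cells, had 0 counts in all libraries.

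Across the set, day 2 differed little from day 0 in balance, and day 4 had more members higher than lower. Between days 0 and 2, 5 of the 42 members that reached 1 CPM passed the 2-fold threshold upward, which is 11.9%, against 12.9% of all genes. Another 5 were at least 2-fold lower, also 11.9%, against 8.81% of all genes. The lower count was 10 with a pseudocount of 0.1 CPM and 0 with one of 5 CPM, and the higher count was 3 with the latter. The median difference of log2(CPM + 1) was -0.11 over these members and -0.0009 over all 15379 genes. The higher share was close to that of all genes. Of the higher members, IFI16, IFIT2, OAS1 and OAS3 reached 1 CPM in this comparison through day 2 alone. Of the lower ones, DHX58, TLR3 and MX1 did so through day 0 alone.

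Between days 2 and 4, 13 of 42 members were at least 2-fold higher, which is 31.0%, against 8.18% of all genes. Lower were 4 members, or 9.52%, against 7.6% of all genes. The median difference was 0.56 over the members and 0.02 over all 15406 genes. The count of higher members rests partly on genes of few reads: it was 8 with a minimum of 5 CPM and 7 with a pseudocount of 5 CPM. Of the higher members, IFIH1, IFIT3, OAS2, OASL, MX1 and IFI44 reached 1 CPM in this comparison through day 4 alone.

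Between days 0 and 4, 17 of 46 members were at least 2-fold higher, which is 37.0%, against 16.1% of all genes. Lower were 4, or 8.70%, against 11.9% of all genes, and the medians were 0.46 and 0.03. The higher count was 10 with a pseudocount of 5 CPM, 11 with a minimum of 5 CPM and 10 on the deposited FPKM. Of the higher members, IFIH1, IFI16, IFIT2, OAS1, OAS2, OAS3, CMPK2 and IFI44 reached 1 CPM in this comparison through day 4 alone. Of the lower ones, TLR3 did so through day 0 alone. The comparisons of day 4 with days 2 and 0 share the day 4 library. The members were chosen with earlier results of these libraries known, so these shares describe the set and test nothing.

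**Figure D1:**
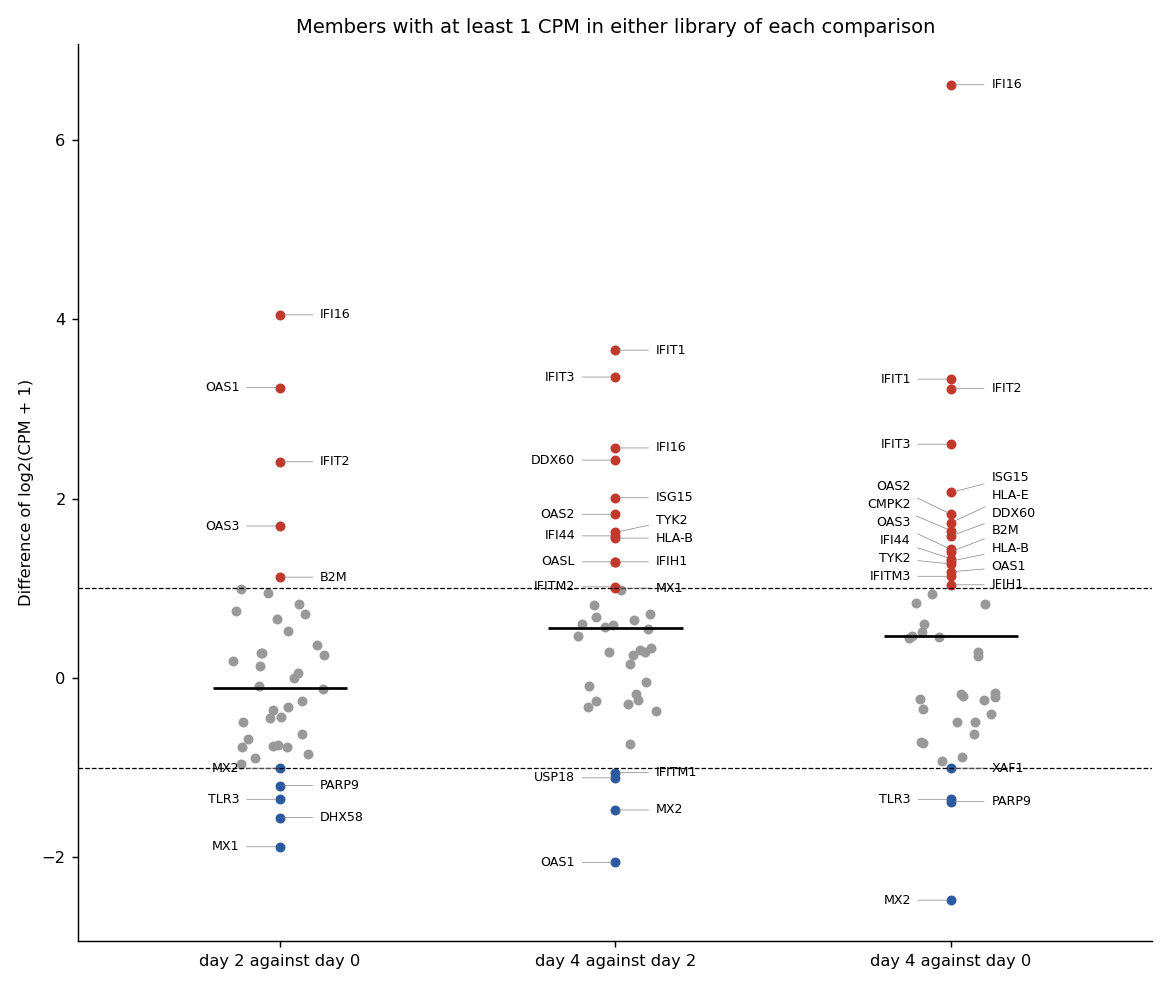
Difference of log2(CPM + 1) for each member with at least 1 CPM in either library of the comparison named on the x axis. Red points are at least 2-fold higher, blue points at least 2-fold lower (dashed lines at 1 and -1), grey points neither, and black bars are medians of -0.11, 0.56 and 0.46; IFI16 stands highest against day 0, and IFIT1 and IFIT3 stand highest in day 4 against day 2.

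Sensors and their adaptor. The RNA sensors took different courses. DDX58 (gene ID 23586), which encodes RIG-I, measured 15.3, 16.9, 9.47 and 12.9 CPM on days 0, 2, 3 and 4. It was 1.78-fold lower on day 3 than on day 2 (1.24 to 2.58), and no other step exceeded counting error. Its adaptor gene MAVS (gene ID 57506), with a length of 11753 bases, measured 106, 174, 197 and 146 CPM. In order of level per length, it ranked 11, 8, 9 and 12 among the members on days 0, 2, 3 and 4. MAVS was 1.64-fold higher on day 2 than on day 0 (1.47 to 1.83), below the 2-fold threshold.

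The other RIG-I-like receptors were close to the floor. IFIH1, which encodes MDA5, had 1, 0, 1 and 8 counts, and its 1.45 CPM on day 4 was at least 2.47-fold above day 2. DHX58, which encodes the regulator LGP2, had 10, 0, 0 and 3 counts and was at least 3.30-fold lower on day 2 than on day 0. TLR3, the endosomal receptor for double-stranded RNA, had 8 counts on day 0 and none later, so it was at least 2.85-fold lower on day 4. Thus IFIH1 was detected mainly on day 4, and DHX58 and TLR3 mainly on day 0.

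DDX60 (gene ID 55601), a helicase described as a cofactor of RIG-I signalling, measured 2.91, 1.18, 0.773 and 10.7 CPM. Day 4 stood above the other days, whose intervals overlapped. From day 3 to day 4 it was 13.9-fold higher (5.14 to 52.6), and against day 0 it was 3.69-fold higher (2.06 to 7.0).

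IFI16 (gene ID 3428), a nuclear sensor of DNA in the PYHIN family, had the largest change of the set. It measured 0.970 CPM on day 0, from 5 counts, then 31.6, 155 and 192 CPM. Every day was above the one before beyond counting error. Day 2 was 32.6-fold above day 0 (13.7 to 102), and day 3 was 4.90-fold above day 2 (4.13 to 5.84). Day 4 was 1.24-fold above day 3 (1.13 to 1.36) and 198-fold above day 0 (84.5 to 610). IFI16 thus rose in the activin A and BMP4 step already. The 6 endothelial markers summed to 246 CPM on day 0 and 421 CPM on day 2, with CD34 at 3 and 148 counts, KDR at 209 and 354 CPM, and CDH5 at 3 counts and 1 count. Their part in the change of IFI16 was not tested.

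**Figure D2:**
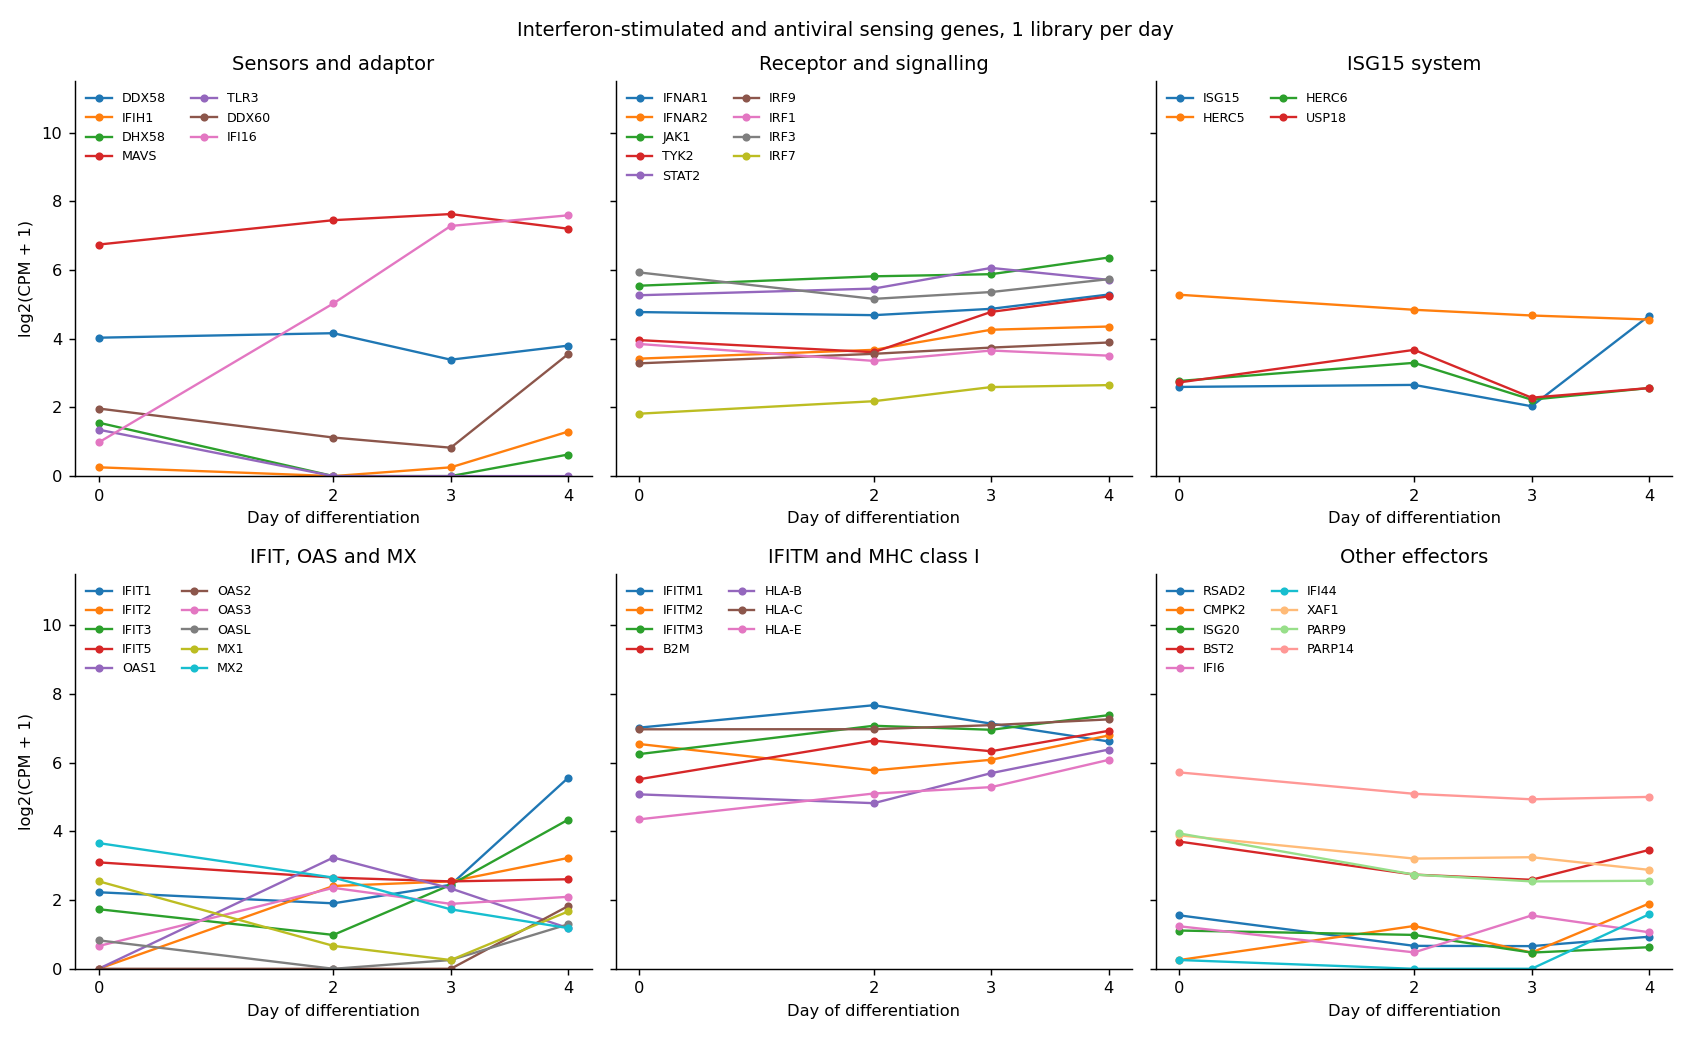
Each line is a member with at least 1 CPM in any library, in panels by role, as log2(CPM + 1) against the day of differentiation, with 1 library per day. In the receptor and signalling panel TYK2 alone passes 2-fold against day 0, and IFI16 climbs from 0.970 to 192 CPM. IFIT1, IFIT3, ISG15 and DDX60 rise between days 3 and 4, and IFIT3 rises beyond counting error between days 2 and 3 as well.

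Receptor, kinases and transcription factors. The genes that carry the interferon signal were expressed on every day. Of 9 members, none was 2-fold higher or lower on day 2 against day 0, where 12.9% of all genes were higher and 8.81% lower. On day 4, 1 of 9 was 2-fold higher against day 2 and against day 0, or 11.1%, beside 8.18% and 16.1% of all genes. That gene was TYK2 (gene ID 7297), the kinase bound to IFNAR1, at 14.5, 11.2, 26.5 and 36.5 CPM. TYK2 was 3.27-fold higher on day 4 than on day 2 (2.42 to 4.47).

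The receptor genes were higher on day 4 by less than the threshold. IFNAR1 measured 26.4, 24.7, 28.2 and 38.0 CPM and was 1.44-fold above day 0 on day 4 (1.16 to 1.80). IFNAR2, the other chain, measured 9.70, 11.8, 18.2 and 19.4 CPM, with 43.0% of its 50-base windows shared with a read-through model. Its day 4 level was 2.01-fold that of day 0 (1.42 to 2.87), with a difference of 0.93 on the log2(CPM + 1) scale. JAK1, the kinase bound to IFNAR2, measured 45.6, 55.3, 57.8 and 81.2 CPM, 1.78-fold higher on day 4 than on day 0 (1.52 to 2.10). All 4 genes of the receptor and its kinases thus had their highest value on day 4.

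STAT2, which joins IRF9 in the complex named above, measured 37.4, 43.0, 65.7 and 51.4 CPM, with its highest value on day 3. IRF9 measured 8.73, 10.8, 12.4 and 13.8 CPM, and no single step exceeded counting error. Of the 50-base windows of IRF9 transcripts, 82.7% also occur in a neighbouring gene model of the GENCODE annotation, so its count depends on how that model was treated.

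Among the interferon regulatory factors, IRF3, the factor that sensing activates directly, measured 59.9, 34.7, 40.0 and 52.2 CPM. It was 1.73-fold lower on day 2 than on day 0 (1.43 to 2.09). IRF7, which amplifies the response and is itself interferon-stimulated, measured 2.52, 3.53, 5.02 and 5.27 CPM, from 13 to 29 counts. IRF1, which also responds to interferon gamma, measured 13.4, 9.22, 11.6 and 10.4 CPM, and no pair of days differed beyond counting error among the 5 compared.

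ISG15 and its enzymes. ISG15 (gene ID 9636), a ubiquitin-like protein that is attached to other proteins, measured 5.04, 5.30, 3.09 and 24.4 CPM. The first 3 days had overlapping intervals, and day 4 stood above all of them. It was 7.88-fold higher on day 4 than on day 3 (4.68 to 14.2). The genes of its conjugation and removal did not share this course. HERC5, the main ISG15 ligase, measured 37.8, 27.7, 24.5 and 22.5 CPM, 1.68-fold lower on day 4 than on day 0 (1.33 to 2.12). HERC6 measured 5.82, 8.83, 3.67 and 4.91 CPM. USP18, which removes ISG15 and dampens the receptor, measured 5.62, 11.8, 3.87 and 4.91 CPM. USP18 was 2.40-fold lower on day 4 than on day 2 (1.5 to 3.93), and 23.0% of its 50-base windows also occur in its copy USP41.

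IFIT genes. IFIT proteins bind viral RNA and block its translation. IFIT1 (gene ID 3434) measured 3.68, 2.75, 4.45 and 46.2 CPM, from 19, 14, 23 and 254 counts. The first 3 days did not differ beyond counting error in the steps compared, and day 4 was 10.4-fold above day 3 (6.77 to 16.7) and 12.5-fold above day 0 (7.86 to 21.2). IFIT3 (gene ID 3437), which forms a complex with IFIT1, measured 2.33, 0.981, 4.45 and 19.3 CPM. It was 4.53-fold higher on day 3 than on day 2 (1.69 to 15.3) and 4.33-fold higher on day 4 than on day 3 (2.74 to 7.13). Day 4 was therefore the highest day for both partners.

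IFIT2 (gene ID 3433) had 0 counts on day 0, then 4.32, 4.83 and 8.36 CPM. It was at least 7.42-fold above day 0 already on day 2, and 1.73-fold higher on day 4 than on day 3 (1.04 to 2.94). IFIT5 (gene ID 24138) measured 7.56, 5.30, 4.83 and 5.09 CPM and did not exceed counting error in any comparison. The summed level of IFIT1, IFIT2 and IFIT3 was 6.01, 8.04, 13.7 and 73.8 CPM. Between days 3 and 4 the family thus split, with IFIT1 and IFIT3 at least 4-fold higher, IFIT2 by less than 2-fold and IFIT5 level within counting error.

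**Figure D3:**
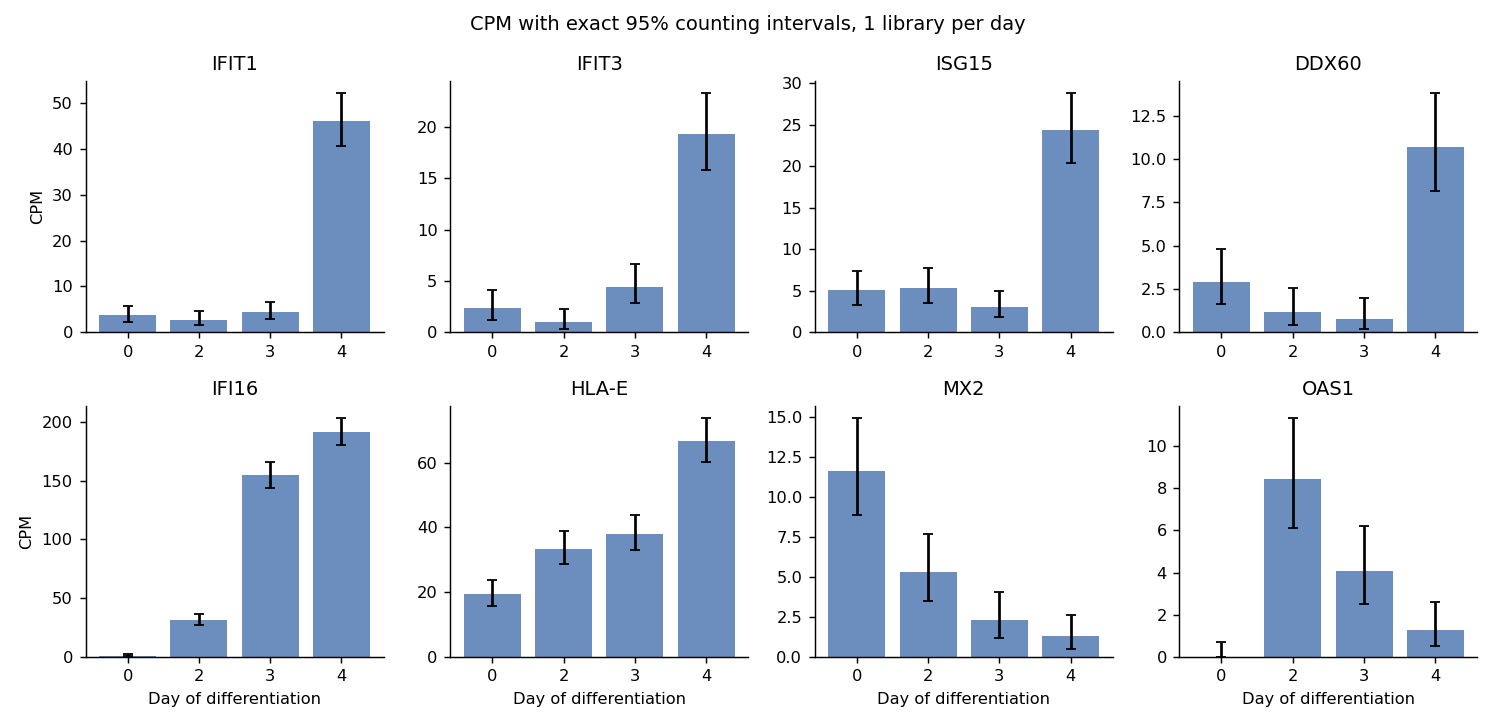
CPM on days 0, 2, 3 and 4 for 8 members, each panel with its own linear axis from 0; bars are the value of the 1 library of that day and error bars exact 95% Poisson intervals. IFIT1, IFIT3, ISG15 and DDX60 are highest on day 4, IFI16 is already at 155 CPM on day 3, MX2 is lower on each later day, and OAS1 is highest on day 2.

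The promoters of the late members were read for the core letters of the ISRE, because that element is the known landing site of the interferon-activated complex. The RefSeq table of GRCh38.p14 held a window of 250 bases before to 50 bases after the start for 40 of the 51 members. Its core, GAAA followed by any 2 bases and GAAA, was searched on both strands and occurred in at least 1 window of 23 of these 40, or 57.5%. It occurred in 4.38% of all 27305 genes with a window and in 3.84% of the 12506 genes with a window that reached 1 CPM in any library. The gamma-activated sequence, TTCNNNGAA, occurred in 11 of 40 members, or 27.5%, in 9.38% of all genes with a window and in 8.48% of those that reached 1 CPM, and a match of either can overlap another. A match is a description of letters and not a measured binding site.

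The stretches that hold the ISRE letters in 4 members highest on day 4 and in 3 members that were not 2-fold higher against day 0 are set out here, 5′ to 3′ in the direction of the gene, upstream of the start, with the matches in capitals. The stretches were chosen for holding these letters, so the likeness of the capitals follows from that choice. Genes that took different courses are among them, and other members that hold the letters are not set out.
IFIT1, chr10:89392497-89392539, + strand: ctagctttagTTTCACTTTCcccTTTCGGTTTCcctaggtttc
IFIT3, chr10:89332425-89332497, + strand: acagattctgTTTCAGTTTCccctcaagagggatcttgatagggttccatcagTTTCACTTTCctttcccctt
ISG15, chr1:1013374-1013409, + strand: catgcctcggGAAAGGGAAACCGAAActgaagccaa
DDX60, chr4:168318786-168318850, - strand: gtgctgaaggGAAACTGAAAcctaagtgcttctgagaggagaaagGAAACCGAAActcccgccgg
BST2, chr19:17405735-17405770, - strand: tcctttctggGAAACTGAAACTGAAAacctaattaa
HERC5, chr4:88456984-88457064, + strand: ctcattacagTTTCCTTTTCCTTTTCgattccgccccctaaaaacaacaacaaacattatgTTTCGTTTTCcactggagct
PARP14, chr3:122680800-122680829, + strand: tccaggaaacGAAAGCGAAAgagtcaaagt

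IFIT1, IFIT3, ISG15, DDX60 and BST2 each hold 2 matches in the stretch shown, HERC5 holds 3 and PARP14 holds 1. In ISG15, BST2 and HERC5 the neighbouring matches share letters. IFI16, the member with the largest change, had no match of the ISRE letters in either of its 2 windows. Between days 2 and 4, 7 of 17 members with the letters passed 2-fold upward and 1 downward, and their median difference was 0.59. Without the letters, 3 of 15 were higher and 1 lower, with a median of 0.29. Of the members without a window, 3 of 10 were higher and 2 lower, with a median of 0.75, above both groups. Of all genes 8.18% were higher and 7.6% lower. Between days 3 and 4, 7 of 17 members with the letters were higher and 0 lower, with a median of 0.59. Without the letters, 1 of 15 was higher and 1 lower, with a median of 0.31. Of the members without a window, 2 of 10 were higher and 0 lower, with a median of 0.53. Of the higher members with the letters, IFIH1, DDX60, MX1 and IFI44 reached 1 CPM in that comparison through day 4 alone. So did CMPK2 without the letters, and OAS2 and OASL without a window. Among all genes with a window, 4.444% with the letters and 2.604% without were higher in that step, and 4.222% and 3.607% lower. Between days 0 and 4, 9 of 20 members with the letters were higher and 2 lower, and 5 of 15 without the letters were higher and 1 lower, beside 16.1% and 11.9% of all genes. The 20 with the letters ranged from -1.38 to 3.33 with a median of -0.21, and the 15 without ranged from -1.0 to 6.61 with a median of 0.51. Of the members without a window, 3 of 11 were higher and 1 lower, with a median of 0.47. The counts for days 2 and 4 and for days 0 and 4 include members named earlier as reaching 1 CPM through day 4 alone.

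IFITM genes. IFITM proteins sit in membranes and hinder the fusion of enveloped viruses. They were among the most abundant members in every library. IFITM1 (gene ID 8519) measured 129, 203, 139.7 and 97.2 CPM, with its highest value on day 2. It was 1.58-fold higher on day 2 than on day 0 (1.43 to 1.74) and 2.09-fold lower on day 4 than on day 2 (1.88 to 2.32). IFITM2 (gene ID 10581) took the opposite course, at 92.3, 53.7, 66.9 and 109.8 CPM, and was 2.04-fold higher on day 4 than on day 2 (1.77 to 2.36). IFITM3 (gene ID 10410) measured 75.1, 134, 123 and 166 CPM, 2.21-fold higher on day 4 than on day 0 (1.96 to 2.50).

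These 3 genes are close copies, and their split is less certain than their intervals say. Of 50-base windows in GENCODE transcripts, 30.3% of those of IFITM1 also occur in IFITM2, and 12.1% of those of IFITM3 occur in IFITM2. In sum the 3 genes measured 296, 391, 330 and 373 CPM, with less spread in proportion than any 1 of them. IFITM2 and IFITM3 together measured 167, 188, 190 and 276 CPM.

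OAS and MX genes. The OAS enzymes make a second messenger that activates the RNA-degrading enzyme RNase L. OAS1 (gene ID 4938) had 0 counts on day 0, then 8.44, 4.06 and 1.27 CPM. It was at least 14.5-fold higher on day 2 than on day 0, and 6.63-fold lower on day 4 than on day 2 (2.96 to 17.5), so it was highest on day 2. OAS3 measured 0.582, 4.12, 2.71 and 3.27 CPM and was 7.08-fold higher on day 2 than on day 0 (2.11 to 37.1). OAS2 had counts on day 4 alone, 14 of them, or 2.54 CPM. OASL had 4, 0, 1 and 8 counts. In this family, then, OAS1 and OAS3 were higher by day 2, whereas OAS2 was detected late.

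The MX genes encode GTPases that trap viral components, and both were highest on day 0. MX2 (gene ID 4600) measured 11.6, 5.30, 2.32 and 1.27 CPM and was 9.15-fold lower on day 4 than on day 0 (4.18 to 23.7). MX1 (gene ID 4599) measured 4.85, 0.588, 0.193 and 2.18 CPM, from 25, 3, 1 and 12 counts. It was 8.24-fold lower on day 2 than on day 0 (2.51 to 42.6) and 11.3-fold higher on day 4 than on day 3 (1.67 to 482). MX1 thus had a low point between higher values, and MX2 did not.

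Other effectors. Of 14 members, 9 reached 1 CPM in either library of the day 4 and day 0 comparison, with 2, or 22.2%, past the threshold in each direction, beside 16.1% of all genes higher and 11.9% lower. PARP14, an ADP-ribosyltransferase with a length of 7713 bases, measured 51.6, 33.2, 29.6 and 31.1 CPM, 1.66-fold lower on day 4 than on day 0 (1.36 to 2.02). It had the highest CPM of the 14, but per length BST2 ranked above it on every day. PARP9 (gene ID 83666) measured 14.4, 5.69, 4.83 and 4.91 CPM, 2.92-fold lower on day 4 than on day 0 (1.86 to 4.73). Its partner DTX3L, a ubiquitin ligase outside the set, measured 29.1, 14.3, 14.9 and 14.7 CPM. The promoter windows of PARP9 and DTX3L overlap by 137 bases on opposite strands, and both genes had their highest value on day 0.

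XAF1, which counters inhibitors of apoptosis, measured 13.8, 8.24, 8.50 and 6.36 CPM, 2.16-fold lower on day 4 than on day 0 (1.42 to 3.34). BST2, or tetherin, which holds budding virus at the cell surface, had 62, 29, 26 and 55 counts, with lower values on days 2 and 3 than on days 0 and 4. The genes RSAD2, the antiviral enzyme viperin, and CMPK2, a nucleotide kinase, have promoter windows that overlap by 165 bases on opposite strands. RSAD2 had 10, 3, 3 and 5 counts and CMPK2 had 1, 7, 2 and 15, so these neighbours were highest on different days.

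IFI44 had 1, 0, 0 and 11 counts and was at least 3.45-fold higher on day 4 than on day 3. ISG20, an exonuclease, had 6, 5, 2 and 3 counts, and IFI6 had 7, 2, 10 and 6. SAMD9, SAMD9L, IFI27 and IFI35 stayed under 1 CPM in every library, and IFI44L had 0 counts in all 4. Several genes that respond strongly to interferon in other cells were thus at or near the floor on all days.

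MHC class I. The class I molecules that present peptides to T cells were expressed in undifferentiated cells and were higher on day 4. B2M (gene ID 567), the light chain shared by all of them, measured 44.8, 98.9, 79.6 and 121 CPM, 2.69-fold higher on day 4 than on day 0 (2.32 to 3.14). HLA-E (gene ID 3133), a ligand of an inhibitory receptor of natural killer cells, measured 19.4, 33.3, 38.1 and 66.7 CPM, 3.44-fold higher on day 4 than on day 0 (2.75 to 4.33). HLA-B (gene ID 3106) measured 32.8, 27.3, 50.8 and 82.3 CPM and was 3.02-fold higher on day 4 than on day 2 (2.49 to 3.68). HLA-C (gene ID 3107) measured 124.5, 124.8, 135 and 152 CPM, only 1.22-fold higher on day 4 than on day 0 (1.10 to 1.36). So B2M, HLA-B and HLA-E were at least 2-fold higher on day 4 than on day 0, and HLA-C was not. These genes are similar to one another: 6.17% of the 50-base windows of HLA-C and 5.13% of those of HLA-E occur in other genes.

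Levels of different genes can be compared only per length, for which the deposited FPKM (fragments scaled to gene length and library size) was used. The IFITM genes led on days 0, 3 and 4: IFITM1 was first on days 0, 2 and 3, at 186, 282 and 197 FPKM, and IFITM3 was first on day 4, at 255 FPKM. HLA-C and B2M were in the top 5 on every day. ISG15 was at 37.0 FPKM on day 4, eighth among the members, and IFI16 was sixth at 69.7 FPKM. The median FPKM of listed genes was 5.48 on day 0 and 5.645 on day 4, and 15 and 21 members lay above it. So the most abundant members per length were membrane restriction factors and class I genes on all 4 days. The helicases, OAS and MX genes lay below the median FPKM of listed genes on each day. Among the members, DDX58 ranked 24, 22, 26 and 25 on days 0, 2, 3 and 4, OAS1 ranked 19 on day 2 and MX2 20 on day 0.

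**Figure D4:**
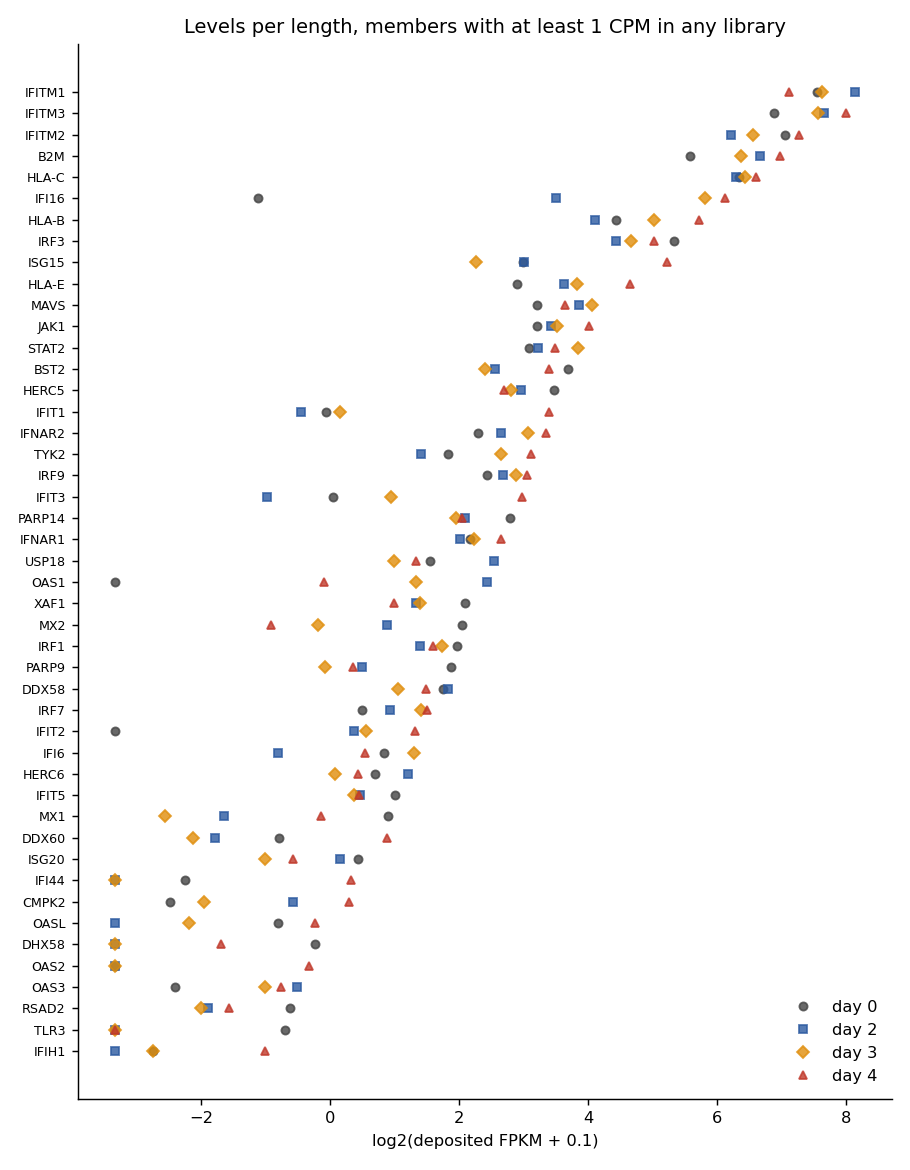
Deposited FPKM of the 46 members with at least 1 CPM in any library, as log2(FPKM + 0.1), ordered by their highest value, with 1 symbol per day. IFITM1, IFITM3, IFITM2, B2M and HLA-C lie at the top on every day, and IFI16, IFIT1 and IFIT3 spread widely between day 0 and day 4.

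Other genes of the pathway were read from lists that did not overlap with the set. Of 42 further interferon-stimulated genes, 35 reached 1 CPM in either library of the day 4 and day 0 comparison, 6 passed 2-fold upward (17.1%, beside 16.1% of all genes) and 9 downward (25.7%, beside 11.9%), and the median was -0.27. The 4 largest differences in this list were decreases. TRIM22, a ubiquitin ligase with antiviral activity, measured 77.4, 4.12, 3.09 and 3.09 CPM, 25.0-fold lower on day 4 than on day 0 (15.4 to 43.4). IDO1, which degrades tryptophan, measured 75.6, 7.85, 6.38 and 4.73 CPM. SAMHD1, which depletes nucleotides, measured 64.4, 7.45, 7.92 and 11.1 CPM, and SHFL 19.6, 8.44, 3.87 and 2.73 CPM. All 4 were already lower on day 2. Other genes of the list were higher: GBP4 measured 18.0, 37.9, 47.9 and 84.5 CPM, and APOBEC3G 1.16, 42.6, 8.50 and 3.63 CPM. Between days 0 and 2, 7 of 34 genes of the list were at least 2-fold higher (20.6%, beside 12.9% of all genes). Another 8 were lower (23.5%, beside 8.81%). Between days 2 and 4, 3 of 35 were at least 2-fold higher (8.57%, beside 8.18% of all genes) and 7 lower (20%, beside 7.6%).

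Of 16 further receptor and signalling genes, 15 reached 1 CPM in that comparison, with 3 higher and 3 lower, or 20% each, beside 16.1% and 11.9% of all genes. SOCS1, a feedback inhibitor of JAK kinases, had 40, 51, 17 and 3 counts and was 14.2-fold lower on day 4 than on day 0 (4.53 to 71.9). IL10RB, a chain of the receptor for type III interferon, measured 1.55, 8.24, 9.66 and 9.27 CPM. STAT3 measured 155, 94.7, 69.6 and 68.7 CPM, and IRF4 4.85, 3.73, 0.773 and 0.545 CPM.

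Of 18 further sensors and adaptors, 14 reached 1 CPM, and on day 4 against day 0 there were 4 higher (28.6%, beside 16.1% of all genes) and 1 lower (7.14%, beside 11.9%). TICAM1, the adaptor of TLR3, measured 0.970, 0.981, 3.29 and 5.63 CPM, although TLR3 had no count after day 0. STING1, the adaptor of cytosolic DNA sensing, had 0, 0, 2 and 13 counts. NOD1, a sensor of bacterial cell wall fragments, measured 4.07, 9.81, 8.89 and 12.9 CPM, and the signalling adaptor gene TRAF3 12.8, 27.1, 29.4 and 33.8 CPM. These 4 were all at least 2-fold higher on day 4 than on day 0.

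Of 20 further antigen presentation genes, 19 reached 1 CPM, 7 were at least 2-fold lower on day 4 than on day 0 and none higher, and the median was -0.45. The lower share was 36.8%, beside 11.9% of all genes, with 16.1% of all genes higher. TAP2, a chain of the peptide transporter, measured 22.1, 6.28, 4.06 and 5.63 CPM, and PSMB8, an immunoproteasome subunit, 4.65, 0.981, 0.193 and 0.545 CPM. CD74, the class II invariant chain, measured 37.8, 19.6, 12.2 and 12.2 CPM, and HLA-DRA had 24, 5, 0 and 0 counts. TAP2, PSMB8, CD74 and HLA-DRA were thus lower on day 4 than on day 0, whereas B2M, HLA-B and HLA-E were higher. Other genes of the list were not 2-fold lower. TAPBP measured 47.5 CPM on day 0 and 45.4 CPM on day 4, CALR 991 and 1345 CPM, and PDIA3 1027 and 1211 CPM.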

How the data were processed

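H1 libraries of days 0, 2, 3 and 4, with 1 library per day, were read from the deposited tables of genes by Entrez ID. Tools in the submitters' processing notes are RSEM, Bowtie and BWA, and the assembly there is hg19. The role and version of each tool is not given in the sources used here. Per the file headers, the deposited values are an expected count, which is an estimated read count per gene, and FPKM. Expected counts were rounded to whole numbers, and genes that a library did not list were set to 0. CPM used library totals scaled by TMM factors of 1.02, 0.981, 0.995 and 1.00 (edgeR 4.0.16, R 4.3.3). Intervals are exact, Poisson for CPM and conditional binomial for ratios, at 95% (Python 3.11.15, scipy 1.17.1). Reads without molecular identifiers are not independent molecules, so intervals cover counting error only.

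Symbols were matched through a RefSeq table of GRCh38.p14, 50 members by current symbol and DDX58 by an older one; 117 of 19390 IDs had no match. Members with at least 1 CPM in any library were given values in every library, and of each further list up to 4 genes with the largest difference between days 4 and 0. DTX3L, GBP4, APOBEC3G, TAPBP, CALR, PDIA3, MIXL1 and MESP1 were added after their values were seen. The members and lists were chosen with earlier results of these data known. Shared 50-base windows were counted over GENCODE release 29 transcripts, a check added after the data were seen, in place of a planned protein identity, which was not run. The 2-fold rule was tested on simulated data. Alternatives were pseudocounts of 0.1 and 5, median-of-ratios factors, unscaled totals, no minimum, a minimum of 5 CPM, a 4-fold threshold, a counting interval that leaves out 1, the deposited FPKM, and the set without 6 members that have close copies. A count was taken as the same within 1.5 times and a median within 0.1.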

Additional observations from a re-analysis of the deposited data

How the results depend on the processing

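Ratios of single members stayed within their counting interval in all 120 values each under median-of-ratios factors, unscaled totals and the deposited FPKM. Counts and medians of the set depended on how genes of few reads were treated. The counts of members at least 2-fold higher in day 2 against day 0, day 4 against day 2 and day 4 against day 0 were 5, 13 and 17. With a pseudocount of 5 they were 3, 7 and 10, with a minimum of 5 CPM 3, 8 and 11, and at least 4-fold 3, 5 and 5. On the deposited FPKM, day 4 against day 0 gave 10. The counts of lower members were 5, 4 and 4. With a pseudocount of 0.1 they were 10 in day 2 against day 0 and 7 in day 4 against day 0. With a pseudocount of 5 they were 0, 2 and 1, at least 4-fold 0, 1 and 1, and on the deposited FPKM 2 in each comparison. A minimum of 5 CPM left 2 in day 2 against day 0. The median of day 2 against day 0, -0.11, turned to 0.059 with a minimum of 5 CPM and was -0.22 without members that have close copies, so no direction is given for it. In day 4 against day 2 the median was 0.56, and 0.29 with a pseudocount of 5, 0.31 without a minimum, 0.32 with a minimum of 5 CPM and 0.37 on the deposited FPKM. In day 4 against day 0 it was 0.46, and 0.32 with a pseudocount of 5 and 0.29 without a minimum. Setting members with 0 counts in a library to their bound left the 3 medians as they were. No paired analysis was possible because each day is 1 library. Depth limits genes of 1 to 5 CPM, where 1 read is 0.182 to 0.196 CPM.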

Other observations

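Targets of NF-kB, the other branch that viral sensing switches on, were read from a list of 15 genes, of which 8 reached 1 CPM in either library of days 0 and 4. Of these, 6 were at least 2-fold higher on day 4 than on day 0, or 75.0% beside 16.1% of all genes, and none passed the threshold downward. The other 2 were RELB, at 3.49 and 1.45 CPM, and ICAM1, at 6.98 and 3.63 CPM. The median difference over the 8 was 1.47. CCL2 and IL6 had 5 and 2 counts on day 0 and reached 1 CPM in this comparison through day 4 alone. Of the targets left out, BIRC3, CXCL1, CXCL2, CXCL8, IL1B and TNF stayed under 1 CPM in every library. VCAM1 reached 1 CPM on day 3 alone. On day 2 against day 0, 5 of 8 were higher, beside 12.9% of all genes, and RELB was lower, at 0.392 CPM, beside 8.81%. NFKBIA, the inhibitor that NF-kB induces, measured 13.6, 112, 87.0 and 52.9 CPM on days 0, 2, 3 and 4, with its highest value on day 2. TNFAIP3, another feedback inhibitor, measured 1.75, 7.26, 15.7 and 16.9 CPM, and the chemokine gene CCL2 0.970, 16.1, 22.2 and 13.1 CPM. NFKB1 measured 7.37, 18.0, 18.6 and 22.7 CPM. These 4 genes were higher than on day 0 on each later day.

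Across all genes with a RefSeq promoter window, those that hold the ISRE letters were compared with those that do not, as a description. Between days 2 and 4, 9.65% of 456 genes with the letters and 7.90% of 11590 without were at least 2-fold higher. Without the members of the set, the share among genes with the letters was 8.43%. Lower were 11.2% with the letters and 6.51% without. Between days 3 and 4, 4.444% of 450 genes with the letters and 2.604% of 11561 without were at least 2-fold higher. Leaving out the members of the set, these shares were 3.002% and 2.598%. With the members, 4.222% of genes with the letters and 3.607% of those without were lower.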
